A study of Mus musculus with 10 samples.

Results

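Melanocytes (Mc) and keratinocytes of the outer root sheath (ORS), sorted from the same kind of mouse skin, were compared across the whole array. The comparison takes the 2 arrays titled Melanocytes and the 2 titled Outer root sheath out of the 10 arrays of the study, and uses all 22626 probe-sets that are not array controls. A probe-set is a group of short DNA probes that together read the RNA of a gene. Its signal is a linear value, which the authors obtained with Affymetrix MAS 5.0.

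Mc are the pigment cells of the hair bulb. They descend from the neural crest, a migratory cell group of the embryo, make melanin in lysosome-related organelles called melanosomes, and hand these to the keratinocytes that build the hair. The transcription factors Sox10 and Pax3 act upstream of Mitf, which switches on the enzymes of melanin synthesis. ORS cells are epithelial cells of the basal type. They are continuous with the basal layer of the epidermis, sit on a basement membrane through hemidesmosomes, and carry the keratins K5, K14 and K15.

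All populations came from backskin of postnatal day 4 (P4) mice that carried both the K14-H2BGFP and the Lef1-RFP transgene, and there was no treatment. In these mice a keratin 14 promoter drives nuclear green fluorescent protein and a human Lef1 promoter fragment drives a red one. Cells of both groups thus carried both transgenes, but they were sorted by which protein they showed. Mc were sorted as RFP-high, GFP-negative and CD117-positive in an antibody labeling of their own, CD117 being the Kit protein. ORS cells were sorted as GFP-high and RFP-negative, without that antibody, after the epidermis and the uppermost follicle had been removed with dispase. Skins of several animals were pooled for a preparation, and the methods describe the replicates as entirely independent datasets. In a sorted population, fewer cells of a type and less RNA per cell cannot be told apart.

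The markers of each cell type were bright in the population that carries its label. Sox10 read 1835 and 1894 in the Mc replicates, against 10.2 and 12.6 in the ORS replicates, and Pax3 read 1575 and 1633 in Mc, against 11.1 and 7.5 in ORS. Krt15, a basal keratin of the sheath, read 5.8 and 5.7 in Mc, against 5034 and 6261 in ORS. Vdr, the vitamin D receptor, read 23.4 and 29.7 in Mc, against 1324 and 1729 in ORS. Leaving out Kit and Krt14, which are tied to the gates, all 8 melanocyte markers on the array were higher in Mc and all 9 ORS markers were lower.

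The Kit protein and the green and red reporters chose the cells, so differences of genes tied to these gates are no finding. Those genes stay in the ranks and list counts below, and each count that holds one is also given without it. Kit read 2989 and 2651 in Mc, against 83.5 and 78.0 in ORS. Krt14, whose promoter drives the green reporter, read 57.2 and 45.1 in Mc, against 4932 and 6500 in ORS. The mouse gene Lef1, a nuclear partner of β-catenin, read 138 and 124 in Mc, against 31.8 and 34.0 in ORS. Its tie to the gate is looser, as a human promoter fragment drove the red reporter. The study did not find that reporter in matrix cells, where it states that mouse Lef1 is normally expressed.

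The arrays of a population were close to each other. Over all probe-sets, Pearson's r of the log2 values was 0.982 between the Mc replicates and 0.981 between the ORS replicates, and it lay between 0.847 and 0.863 for an Mc array against an ORS array. The median signal was 60.1 and 68.1 in Mc, against 67.8 and 70.5 in ORS, and 5582 and 5671 probe-sets reached a signal of 200 in Mc, against 6176 and 6140 in ORS. The actin probe-sets, whose 3′ over 5′ ratio is a sign of RNA integrity, gave similar values. It was 1.26 and 1.41 in Mc, against 1.22 and 1.47 in ORS. The first replicates of both populations came from one chip lot and the second replicates from another, so lot and replicate number coincide. Mc replicate 2 was washed with another fluidics protocol than the other 3 arrays.

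A limma fit of all 10 arrays was made on log2(signal + 50), and a probe-set was called where its p-value, adjusted over all probe-sets, was under 0.05. Because 50 was added to every signal, the folds given here are too small for dim genes. With 2 arrays in each population no permutation test can reach a p of 0.05, so each adjusted p rests on a spread pooled over populations and probe-sets. Of the 22626 probe-sets, 1897 (8.38%) were higher in Mc and 2796 (12.4%) were lower. At least 2-fold differences were seen for 896 probe-sets that were higher in Mc and 1432 that were lower. The arrays of the 2 populations did not overlap for 58.6% of all probe-sets, so a lack of overlap alone says little about a gene.

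The split between directions depended on the scale of the arrays. After quantile normalization 2526 probe-sets were higher in Mc and 2473 lower, and after rescaling to a common trimmed mean 2497 were higher and 2305 lower, so the excess of lower calls was not kept. No probe-set was called in opposite directions under the settings tried. Leaving out single arrays also moved the counts. Without ORS replicate 1 the fit called 1166 higher and 1837 lower, without Mc replicate 1 it called 1453 higher and 1791 lower, and without Mc replicate 2 it called 1192 higher and 1715 lower.

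**Figure D1:**
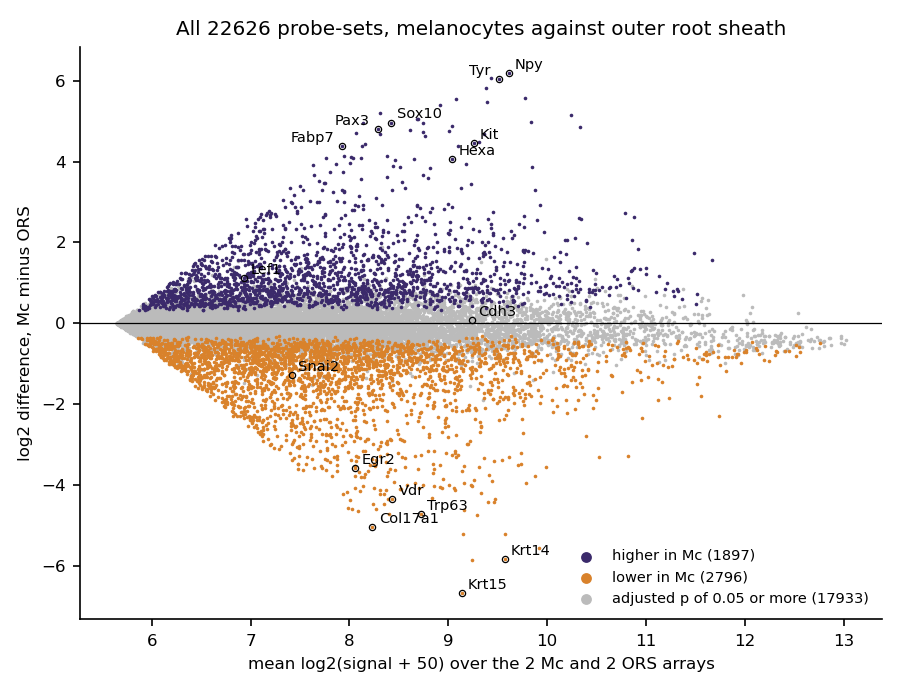
Each point is a probe-set, with the mean log2(signal + 50) over the 4 arrays on the x axis and the log2 difference, Mc minus ORS, on the y axis. Colored points are the 1897 probe-sets called higher and the 2796 called lower in Mc, gray points were not called, and circled genes are named in the text.

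Counted by gene, with the brightest probe-set for each of 12393 genes, 1135 genes (9.16%) stood higher in Mc, and 1739 (14%) stood lower. The median log2 difference over all genes was -0.01. For 60.2% of genes the arrays of the populations did not overlap. The members of each list below are read against these shares.

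The 12 genes that led among those higher in Mc were, in order, Npy, Tyr, Slc45a2, Tyrp1, Trpm1, Mc1r, Pmel, Bace2, Gpr143, Ptgds, Sox10 and Apod. Npy, the gene of neuropeptide Y, read 7371 and 5968 in Mc, against 33.7 and 50.3 in ORS, a log2 difference of 6.19 (standard error 0.48, adjusted p = 0.00013). Bace2, which encodes a protease that processes the melanosome protein Pmel, read 1977 and 2707 in Mc, against 19.7 and 22.4 in ORS. Ptgds, a prostaglandin D synthase, read 4878 and 5333 in Mc, against 68.6 and 172 in ORS. Apod, a lipid-binding apolipoprotein, was far apart between the Mc replicates, at 3804 and 1420, but both lay well above the ORS values of 28.1 and 26.1. The order holds for the pseudocount of 50: with a pseudocount of 1 the log2 difference was 9.35 for Mc1r and 8.06 for Fabp7, which is not among the 12, against 7.30 for Npy.

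The 12 genes that led among those lower in Mc were Krt15, Krt14, Krt5, Krt17, Fxyd3, Col17a1, Nfix, Trp63, Lgals7, Enah, Tagln and Sostdc1. Fxyd3, a regulator of the sodium pump, read 68.9 and 82.5 in Mc, against 4208 and 4976 in ORS. Nfix, a nuclear factor I transcription factor, read 75.1 and 66.4 in Mc, against 2944 and 3457 in ORS. With a pseudocount of 1 Krt15 still stood at -9.70, ahead of Col17a1 at -8.86, while Krt5 stood at -6.15. Enah, which promotes the growth of actin filaments, read 2.6 and 3.9 in Mc, against 1022 and 1482 in ORS. The 24 leading genes were taken by largest log2 difference among called genes whose arrays did not overlap. The wide gaps between the Mc and ORS signals of these genes therefore follow from that choice.

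**Figure D2:**
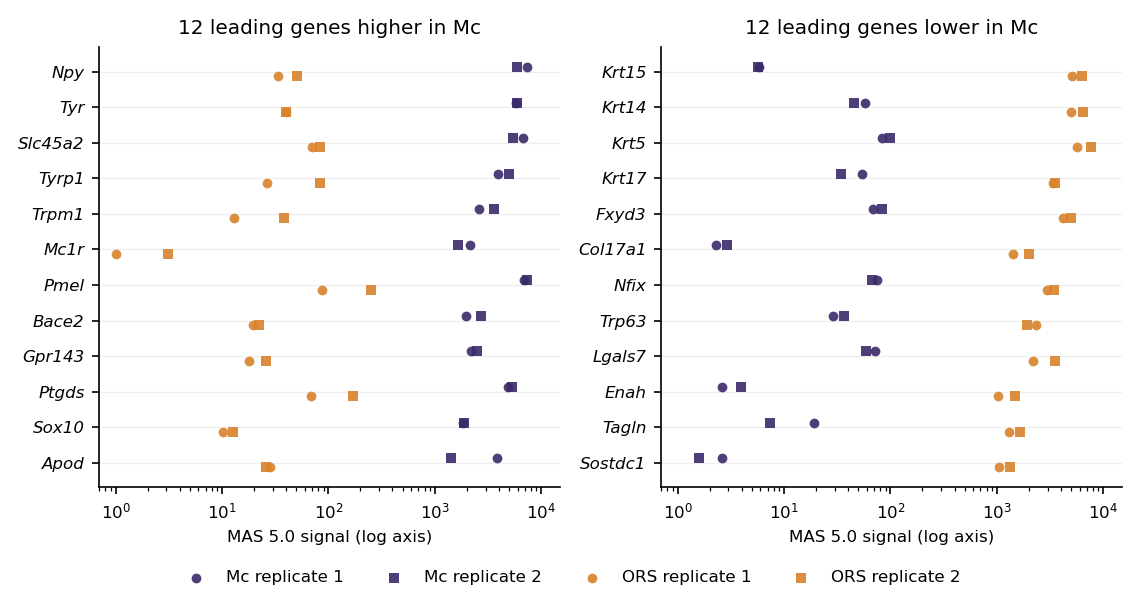
MAS 5.0 signal on a log axis for the 12 leading genes in each direction, with Mc replicates in purple and ORS replicates in orange. Sox10 sits at 1835 and 1894 in Mc and at 10.2 and 12.6 in ORS, and Krt15 at 5.8 and 5.7 in Mc and at 5034 and 6261 in ORS.

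Of the 16 genes for melanin synthesis and the melanosome matrix on the array, 14 were higher in Mc and none was lower, with a median log2 difference of 4.76. The summed signal of the list was 43601 and 49183 in Mc, against 861 and 1353 in ORS. Tyr, the enzyme tyrosinase that starts melanin synthesis, read 5829 and 5921 in Mc, against 39.8 and 40.3 in ORS, and was 65.8 times higher (95% confidence interval of the log2 difference 4.74 to 7.34, adjusted p = 0.000269). The related enzyme Tyrp1 read 3919 and 4941 in Mc, against 26.4 and 83.5 in ORS, and was 44.1 times higher. Dct, the third enzyme of this family, read 6471 and 7260 in Mc, against 153 and 236 in ORS, and was 28.7 times higher.

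Pmel, the protein of the fibrils on which melanin is laid down, read 6950 and 7318 in Mc, against 86.7 and 253 in ORS. That Mc value was among the brightest of its arrays, whose highest signals were 7481 and 7318, and whether bright probes were saturated was not tested. Among transporters, Slc45a2 was 47.7 times higher in Mc, and Trpm1, a cation channel of melanocytes, read 2602 and 3611 in Mc, against 13 and 38.0 in ORS. The receptor Gpr143, the product of the ocular albinism gene, was 33.1 times higher. Members with smaller differences, named after their values were seen, were Atp7a, the copper pump that loads tyrosinase, with a log2 difference of 1.62, and Slc7a11, the cystine transporter of pheomelanin synthesis, with 1.78. Slc7a11 was not called without ORS replicate 2 or in a fit of the 4 arrays alone. Th and Tpcn2 were not called, with log2 differences of 0.02 and -0.06.

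The promoters of this list are shown because most of those searched hold a motif that Mitf is known to bind. The M-box was searched as TCATGTG on both strands in the 250 bases before the first RefSeq start listed for each gene. It was found in 7 of the 13 members with a promoter in the table (53.8%), against 3.22% of all 27025 genes with one, and in none of the 30 with a promoter among the 44 members of the keratin, hemidesmosome and basement membrane lists. Another listed start, of Itga3, had a match 221 bases before it. Each line gives the match with 30 bases on either side, or fewer where the 250-base window ended, in GRCm38.p6 and 5′ to 3′ on the strand of the gene. Capitals mark the M-box, which reads as CACATGA where it lies on the opposite strand.
Tyr (chr7:87493513-87493564, minus strand): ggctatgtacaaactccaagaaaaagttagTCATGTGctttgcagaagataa
Tyrp1 (chr4:80834136-80834202, plus strand): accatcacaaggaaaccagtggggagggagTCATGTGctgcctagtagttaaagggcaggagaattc
Dct (chr14:118052361-118052496, minus strand): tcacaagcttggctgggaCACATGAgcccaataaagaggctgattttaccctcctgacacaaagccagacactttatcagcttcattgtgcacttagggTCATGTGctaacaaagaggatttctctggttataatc
Trpm1 (chr7:64153663-64153729, plus strand): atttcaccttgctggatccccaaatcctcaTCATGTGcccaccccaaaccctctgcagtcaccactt
Mc1r (chr8:123407000-123407066, plus strand): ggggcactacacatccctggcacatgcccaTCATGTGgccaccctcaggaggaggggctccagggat
Tspan10 (chr11:120442580-120442630, plus strand): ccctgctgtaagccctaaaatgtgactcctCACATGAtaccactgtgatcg
Slc7a11 (chr3:50443652-50443718, minus strand): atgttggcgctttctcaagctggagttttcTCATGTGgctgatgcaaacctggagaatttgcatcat

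The match began 22 bases before the start of Tyr, 47 before that of Tyrp1 and 52 before that of Mc1r, and Dct held 2 matches, the first 232 bases before its start. All 7 of these genes were called higher in Mc, as were 14 of the 16 list members on the array. Oca2, Gpnmb, Mcoln3 and Atp7a, whose searched promoters held no M-box, were also called higher. The SOX motif ACAAAG was found in 6 of the 13 promoters (46.2%), against 16.5% of all. The E-box CACGTG, whose letters cannot lie inside the M-box, was found in 1 of 13 (7.69%), against 6.05% of all, the AP-2 motif GCCNNNGGC in 2 of 13 (15.4%), against 13.6%, and the AP-1 motif TGANTCA in 1 of 13 (7.69%), against 6.87%. In the epithelial lists these motifs stood at 3 of 30 promoters for SOX (10.0%), 2 for the E-box (6.67%), 9 for AP-2 (30%) and none for AP-1. A match is a stretch of letters and not a site shown to be bound.

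Of 24 genes for melanosome biogenesis and transport, 14 were higher in Mc and 1 was lower, with a median log2 difference of 0.73. Mlph, the adaptor that ties melanosomes to a myosin motor, read 1203 and 1565 in Mc, against 24.8 and 50.4 in ORS, and was 16.4 times higher. The motor Myo5a read 715 and 1361 in Mc, against 156 and 109 in ORS, a log2 difference of 2.52. Rab27a, the small GTPase of the same complex, named after its values were seen, was not called by its brightest probe-set, at 43.1 and 49.6 in Mc, against 27.0 and 27.2 in ORS, but its other 2 probe-sets were called higher, at 71.6 and 80.3 in Mc, against 5.3 and 3.6 in ORS, and at 89.5 and 114 in Mc, against 11.6 and 5.2 in ORS. Rab38, a small GTPase that delivers enzymes to melanosomes, read 2799 and 2975 in Mc, against 247 and 255 in ORS. Rabggta, which attaches lipid anchors to Rab proteins, was the member lower in Mc, by 0.38 on the log2 scale, and it lost its call under 15 of the alternatives.

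Of 43 lysosomal enzymes, membrane proteins and proton pump subunits, 29 were higher in Mc and none was lower, and the median log2 difference was 1.00. The summed signal was 47263 and 54737 in Mc, against 21286 and 24652 in ORS. Hexa, a hexosaminidase that breaks down gangliosides, stood apart from the rest of the list, at 2021 and 2192 in Mc, against 66.0 and 93.2 in ORS, 16.7 times higher (95% confidence interval of the log2 difference 3.45 to 4.67, adjusted p = 6.11e-05). Proton pump subunits followed, with Atp6v0a1 7.16 times and Atp6v1b2 5.87 times higher. For each of the 2 a dim second probe-set was not called. Ctsz and Ctsh, lysosomal cathepsins, were 4.16 and 4.35 times higher. Members that were bright in both populations and differed little were Ctsb, at 1824 and 2407 in Mc, against 2297 and 2871 in ORS, and Psap, at 1478 and 1833 in Mc, against 1202 and 1794 in ORS.

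Among 23 transcription factors of the neural crest and the melanocyte lineage, 12 were higher in Mc and 1 was lower, or 11 and 1 of 22 without Lef1. Sox10 had a log2 difference of 4.96 (95% confidence interval 4.73 to 5.2, adjusted p = 2.19e-06) and Pax3 one of 4.80 (4.36 to 5.25, adjusted p = 1.94e-05). Mitf, the master factor of the lineage, read 2736 and 3208 in Mc, against 94.4 and 75.5 in ORS. Irf4, which acts with Mitf on Tyr, read 390 and 607 in Mc, against 1.7 and 4.5 in ORS, and Ets1 read 707 and 721 in Mc, against 29.2 and 25.5 in ORS. Foxd3, Zeb2 and Sox6, named after their values were seen, had log2 differences of 2.02, 2.29 and 2.35.

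Snai2, a repressor known for its part in neural crest migration and melanocyte survival, went the other way. It read 42.9 and 79.6 in Mc, against 212 and 222 in ORS, a log2 difference of -1.28 (standard error 0.19, adjusted p = 0.00237). The arrays of the populations did not overlap, as was so for 60.2% of all genes. Tfap2a, a factor of both lineages, named after its values were seen, was not called by its brightest probe-set, at 811 and 755 in Mc, against 530 and 534 in ORS, while its 2 others were called higher, with log2 differences of 0.60 and 0.93. Id4, an inhibitor of basic helix-loop-helix factors, was bright on all arrays and was not called, at 2112 and 1179 in Mc, against 1710 and 1894 in ORS.

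Of 40 epithelial and ORS transcription factors, 29 were lower in Mc and 1 was higher, with a median log2 difference of -1.78. Trp63, the p53 relative that maintains stratified epithelia, read 28.8 and 36.7 in Mc, against 2326 and 1926 in ORS, and was 26.2 times lower (adjusted p = 3.5e-05). Vdr was 20.4 times lower in Mc, and its other probe-set differed by as much, at 13.6 and 18.6 in Mc, against 1404 and 2030 in ORS. Lhx2, a LIM homeobox factor of follicle stem and progenitor cells, read 25.3 and 22.7 in Mc, against 1386 and 1034 in ORS.

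Other factors of the list were lower in Mc by less. Bnc1, a zinc finger protein of basal keratinocytes, was 16.2 times lower, Egr2 was 12 times lower, Tcf7l1, a repressor among the TCF proteins, was 6.64 times lower, Hr, the hairless corepressor, was 4.18 times lower and Ets2 was 2.75 times lower. Ets2 stayed bright in both, at 501 and 486 in Mc, against 1371 and 1522 in ORS. A dim second Hr probe-set was not called. Id2, an inhibitor of basic helix-loop-helix factors, was the member higher in Mc, at 1250 and 1840, against 408 and 235 in ORS. Its relative Id1, named after its values were seen, was lower, at 176 and 123 in Mc, against 791 and 614 in ORS. Without Mc replicate 2 neither of the 2 Id genes was called, and Id1 was also lost without ORS replicate 1.

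**Figure D3:**
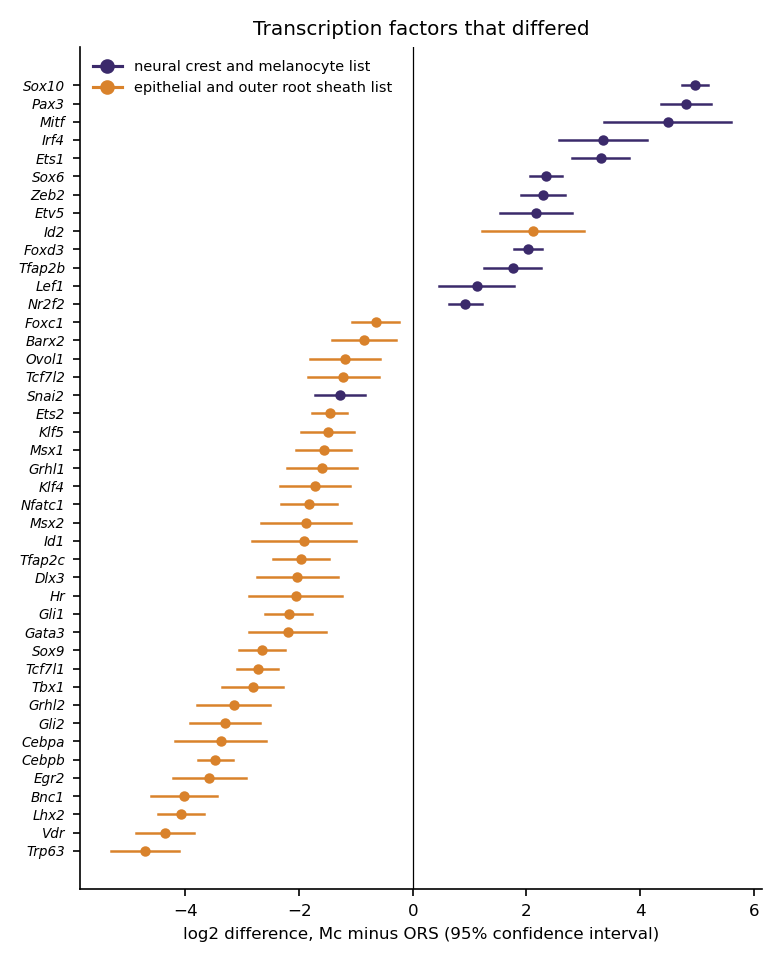
Log2 difference, Mc minus ORS, with its 95% confidence interval, for each transcription factor of the 2 lists that was called, in purple for the neural crest and melanocyte list and in orange for the epithelial and ORS list. Snai2 at -1.28 and Id2 at 2.12 lie on the side opposite to most of their lists.

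Receptors through which melanocytes are guided were split. Of 15 on the array 6 were higher in Mc and 3 were lower, or 5 and 3 of 14 without Kit. Ednrb, the endothelin receptor B, read 1804 and 2582 in Mc, against 33.4 and 33.1 in ORS, 26.5 times higher (adjusted p = 5.92e-05). Mc1r, the melanocortin receptor, read 2147 and 1635 in Mc, against 1.00 and 3.1 in ORS. Gpr37, an orphan receptor of the endothelin receptor family, was 20.7 times higher and Met, the receptor of hepatocyte growth factor, 4.91 times. Fgfr1 was lower, at 48.8 and 37.6 in Mc, against 364 and 307 in ORS, and Cxcr4, the receptor of the chemokine Cxcl12, was lower at 28.1 and 28.4 in Mc, against 118 and 87.3 in ORS. P2ry1, a purine receptor, was the other lower member, with signals of at most 19.0 on any of the 4 arrays, and it was not called without ORS replicate 1 or either Mc replicate.

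Of 10 ligands known to act on melanocytes, none was higher in Mc and 4 were lower, that is, higher in ORS. Kitl, the ligand of Kit, read 36.1 and 85.2 in Mc, against 265 and 166 in ORS, and was 2.42 times lower (adjusted p = 0.0159). Kitl lost its call without ORS replicate 1 and without Mc replicate 1, and its other 3 probe-sets, all dimmer, were not called. Edn1 read 6.4 and 20.9 in Mc, against 160 and 146 in ORS, and Edn2 read 24.7 and 32.2 in Mc, against 220 and 387 in ORS, both ligands of endothelin receptors. Cxcl12 read 35.6 and 32.4 in Mc, against 363 and 710 in ORS, 6.67 times lower.

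Of 15 Schwann cell and glial genes 12 were not called, 1 was higher in Mc and 2 were lower, shares near those of all genes. Fabp7, a lipid carrier of glial and neural crest cells, read 1057 and 1072 in Mc, against 2.2 and 4.0 in ORS (log2 difference 4.39, adjusted p = 2.67e-05). Egr2, which drives myelination in Schwann cells, read 22.5 and 31.9 in Mc, against 894 and 850 in ORS. Pou3f1, its partner in Schwann cells, read 6.7 and 5.8 in Mc, against 239 and 368 in ORS. Both were thus brighter in the epithelial population, on the opposite side to Fabp7 and Sox10.

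Of 36 neuronal and synaptic genes 12 were higher in Mc and none was lower, with a median log2 difference of only 0.08. The members that led were membrane proteins. Gpm6a, a neuronal membrane glycoprotein, read 1406 and 1161 in Mc, against 15.9 and 7.1 in ORS, and its relative Gpm6b read 1609 and 877 in Mc, against 60.5 and 61.2 in ORS. Glrb, the beta subunit of the glycine receptor, read 488 and 585 in Mc, against 5.6 and 5.7 in ORS. Syt4, a synaptotagmin of secretory vesicles, was 8.13 times higher and Nrcam, a neuronal adhesion molecule, 6.45 times.

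Basal and simple epithelial keratins were mostly lower in Mc. Of 15 on the array 11 were lower and none was higher, or 10 of 14 without Krt14. Krt15 was 102 times lower (95% confidence interval of the log2 difference -7.37 to -5.96, adjusted p = 2.67e-05). Krt5, the partner of Krt14, read 84.1 and 98.8 in Mc, against 5605 and 7679 in ORS, and was 46.8 times lower. Krt17, a keratin of follicle epithelium, read 54.1 and 34.0 in Mc, against 3336 and 3485 in ORS, and was 37.0 times lower. Krt6b, Krt20 and Krt23, named after their values were seen, were not called and read at most 112 on any of the 4 arrays. Krt8 was not called, at 60.3 and 108 in Mc, against 138 and 299 in ORS, while its other 2 probe-sets were called lower.

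Genes of anchorage to the basement membrane were mostly lower in Mc. Of 29 hemidesmosome and basement membrane genes 18 were lower in Mc and 4 were higher, with a median of -1.16. Col17a1, the transmembrane collagen of hemidesmosomes, read 2.3 and 2.9 in Mc, against 1403 and 1985 in ORS, and was 32.7 times lower (adjusted p = 5.84e-05). Col4a1, a chain of basement membrane collagen, read 93.9 and 97.9 in Mc, against 2909 and 3246 in ORS. Lamb1, a laminin chain, was 10.8 times lower and Bcam, a laminin receptor, read 37.7 and 90.3 in Mc, against 1065 and 1453 in ORS.

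The integrin pair of the hemidesmosome, named after its values were seen, was lower in Mc for both chains. Itgb4 read 9.9 and 11.3 in Mc, against 308 and 500 in ORS, and Itga6 read 357 and 246 in Mc, against 1253 and 1132 in ORS. Itgb1, the chain shared by many integrins and also named after its values were seen, was not called, at 615 and 602 in Mc, against 580 and 704 in ORS. The members higher in Mc were Dst, Itga9, Nid2 and Nid1. Itga9, an integrin chain, was 4.44 times higher, and the nidogens Nid2 and Nid1, which link laminin to collagen, were 3.57 and 2.58 times higher. A dim other probe-set of Itga9 and a dim second probe-set of Nid1 were not called.

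Dst, which encodes dystonin, a cytoskeletal linker with epithelial, neuronal and muscle forms, was read by 4 probe-sets that went in opposite directions. The brightest, 1423626_at, read 951 and 1302 in Mc, against 108 and 140 in ORS (log2 difference 2.75, adjusted p = 6.74e-05). Probe-set 1421276_a_at was also higher in Mc, at 222 and 301, against 30.4 and 42.4 in ORS. Probe-set 1421117_at read 5.7 and 3.0 in Mc, against 1059 and 1594 in ORS (log2 difference -4.64, adjusted p = 5.51e-05), and 1450119_at read 10.7 and 12.7 in Mc, against 630 and 813 in ORS. Among the genes named by the rule, Dst was the only one whose probe-sets were called in opposite directions. The annotation used here does not say which form of dystonin each probe-set reads.

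**Figure D4:**
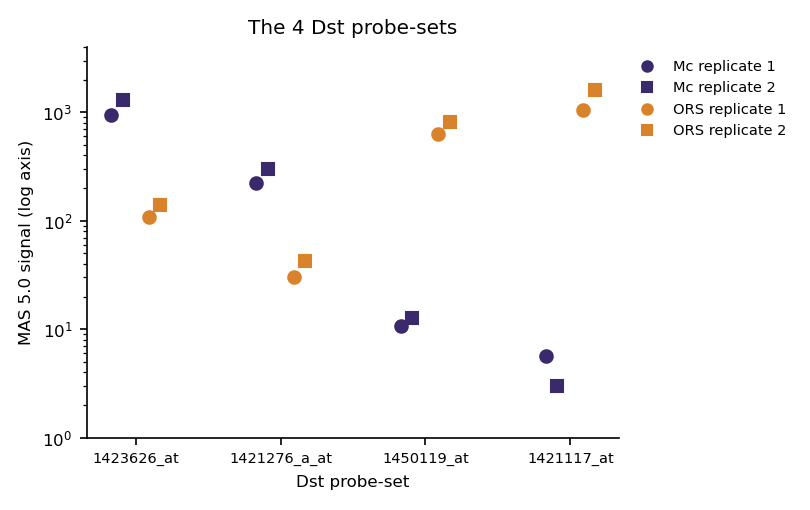
MAS 5.0 signal on a log axis of the 4 probe-sets of Dst, with the Mc replicates left of the ORS replicates for each. The 2 probe-sets at left are brighter in Mc and the 2 at right are brighter in ORS, with the widest gap for 1421117_at, at 5.7 and 3.0 in Mc and at 1059 and 1594 in ORS.

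Of 30 desmosome and tight junction genes 17 were lower in Mc and none was higher. Pkp1, a plaque protein of desmosomes, read 20.2 and 26.2 in Mc, against 1043 and 1672 in ORS, and was 18.8 times lower. Epcam, an epithelial adhesion molecule, read 5.7 and 7.5 in Mc, against 1112 and 909 in ORS, and Perp, a desmosome-associated p63 target, read 117 and 146 in Mc, against 2626 and 2632 in ORS. F11r, a tight junction adhesion molecule, was 13.8 times lower, although a dim second probe-set was not called, and the desmosomal cadherin Dsg2 was 11.4 times lower. The connexins, all named after their values were seen, differed among themselves. Gjb2 and Gja1 were lower but bright in both populations, with Gjb2 at 432 and 491 in Mc, against 2726 and 4476 in ORS, and Gja1 at 1219 and 1226 in Mc, against 4437 and 4604 in ORS. Gjb6 was lower at 17.8 and 35.3 in Mc, against 374 and 549 in ORS, and Gjb5 was not called, at 4.2 and 6.4 in Mc, against 7.7 and 26 in ORS.

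The classical cadherins differed from each other, and the 3 given here were named after their values were seen. Cdh2, N-cadherin, was higher in Mc, at 87.5 and 127, against 13.8 and 8.1 in ORS. Cdh1, E-cadherin, was lower at 473 and 525 in Mc, against 1050 and 911 in ORS, and it lost its call without ORS replicate 1 and without either Mc replicate. Cdh3, P-cadherin, was not called, at 464 and 697 in Mc, against 498 and 582 in ORS, with a 95% confidence interval of the log2 difference from -0.42 to 0.57. In the wider list of 22 cadherins and immunoglobulin adhesion molecules 5 were higher in Mc and 5 were lower, among them Bcam, Icam1, Mcam and Alcam. Mcam, also known as a marker of melanoma cells, read 54.0 and 40.6 in Mc, against 276 and 299 in ORS.

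Epidermal differentiation genes were brighter in ORS, although the epidermis had been removed. Of 28, 16 were lower in Mc and none was higher. Lgals7, a galectin of stratified epithelia, read 72.3 and 59.4 in Mc, against 2177 and 3521 in ORS, and Sfn, the 14-3-3 protein of keratinocytes, read 8.4 and 10.2 in Mc, against 1018 and 1014 in ORS. Krt1, a keratin of suprabasal epidermis, read 40.6 and 40.4 in Mc, against 1167 and 797 in ORS, and its partner Krt10, named after its values were seen, read 75.5 and 61.1 in Mc, against 1378 and 899 in ORS. Of genes of the cornified layer, Lor, Flg and Ivl were not called and stood at no more than 124.1 on any of the 4 arrays. Sprr1a, a precursor of the cornified envelope named after its values were seen, was lower, at 93.8 and 146 in Mc, against 409 and 507 in ORS. Klk7, a protease of that layer named likewise, was lower at 27.6 and 7.4 in Mc, against 134 and 164 in ORS. Both calls were lost without either ORS replicate or without Mc replicate 1, and that of Klk7 also without Mc replicate 2.

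Cell cycle genes were lower in Mc almost throughout. Of 47 genes of S phase and mitosis 41 were lower and none was higher, with a median log2 difference of -1.10. The summed signal was 13732 and 13385 in Mc, against 37476 and 30327 in ORS. Mki67, the proliferation antigen Ki67, read 460 and 424 in Mc, against 2083 and 1702 in ORS, 3.93 times lower (adjusted p = 0.000127). Uhrf1, which recruits the maintenance DNA methyltransferase, read 210 and 189 in Mc, against 1293 and 854 in ORS, and thymidine kinase Tk1 read 205 and 195 in Mc, against 958 and 973 in ORS. The helicase subunit Mcm7 was 3.70 times lower and the licensing inhibitor Gmnn read 132 and 101 in Mc, against 676 and 452 in ORS. The brightest probe-sets of 2 members were not called, Mcm2 at 811 and 763 in Mc, against 649 and 835 in ORS, and Fen1 at 792 and 984 in Mc, against 792 and 479 in ORS, both named after their values were seen. A second probe-set of each was called lower in Mc, by 0.81 on the log2 scale for Mcm2 and by 0.74 for Fen1.

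Regulators of the cycle were mostly not called. Among 18 inhibitors and D cyclins 2 were higher in Mc (11.1%) and 4 were lower (22.2%). These shares were not far from the 9.16% and 14% of all genes. Ccnd1 read 467 and 411 in Mc, against 1572 and 1738 in ORS, and Ccnd2 read 1361 and 1328 in Mc, against 3975 and 3512 in ORS. The inhibitor Cdkn1a was lower as well, at 135 and 108 in Mc, against 453 and 620 in ORS. Gadd45g, a growth arrest gene, was 2.00 times higher, and Rbl2, the retinoblastoma relative p130, was higher by 0.60 on the log2 scale and lost its call under 10 of the alternatives. Cdk4 was bright in both and not called, at 1033 and 1044 in Mc, against 1253 and 1120 in ORS.

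**Figure D5:**
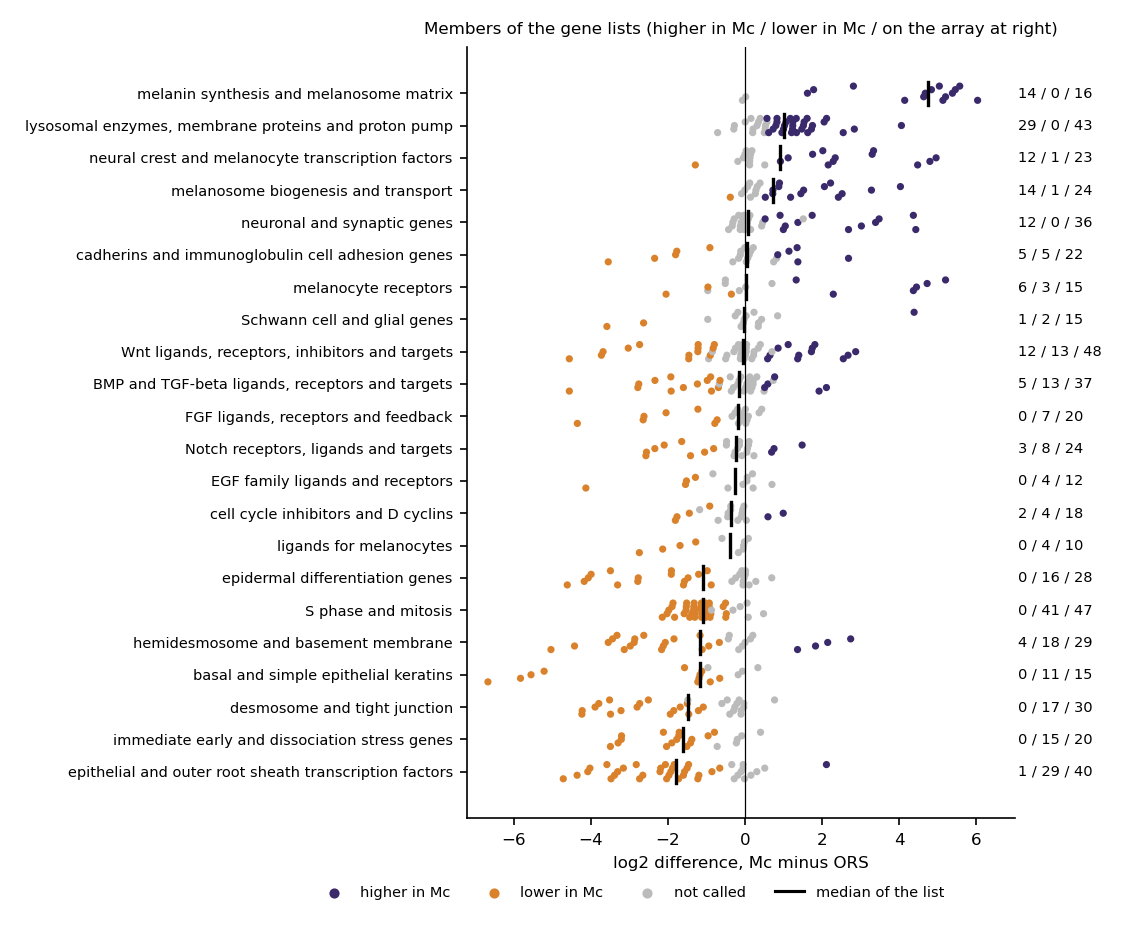
Each point is a list member by its log2 difference, Mc minus ORS, purple where higher in Mc, orange where lower and gray where not called, and black bars are list medians. The melanin list has its median at 4.76 and the list of epithelial and ORS transcription factors at -1.78, while the Wnt list, with 12 higher and 13 lower, is spread on both sides of 0. Kit, Krt14 and Lef1 are included.

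Wnt pathway genes lay on both sides. Of 48 on the array 12 were higher in Mc and 13 were lower, or 11 and 13 of 47 without Lef1. Some genes known to be induced by the pathway and to feed back on it were among the 12 higher in Mc. Whether its targets as a set leaned to either side was not tested. Axin2, a scaffold of β-catenin destruction, read 458 and 667 in Mc, against 118 and 124 in ORS. Nkd1, which binds Dishevelled, read 354 and 293 in Mc, against 8.2 and 8.0 in ORS, and Notum, which inactivates Wnt proteins, read 399 and 218 in Mc, against 56.0 and 53.5 in ORS. Dact1, another Dishevelled-binding protein, was 5.88 times higher, and the secreted inhibitor Wif1 read 645 and 300 in Mc, against 19.0 and 15.5 in ORS. The receptors Fzd3 and Fzd9 were higher by 0.86 and 0.65 on the log2 scale, and the other 3 probe-sets of Fzd3, all dimmer, were not called. Also higher in Mc were the secreted Dkk3, by 3.36 times, and the less stable calls Sfrp4, Nkd2, Lef1 and Sfrp5, each of which was lost without ORS replicate 1.

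Receptors and antagonists were also among the genes lower in Mc. Lgr5, the R-spondin receptor of follicle stem cells, read 45.6 and 42.4 in Mc, against 1040 and 1279 in ORS, and was 12.8 times lower (adjusted p = 2.81e-05). The receptor Fzd2 read 44.1 and 81.4 in Mc, against 727 and 1006 in ORS. Sfrp1, a secreted Wnt antagonist, read 19.8 and 38.6 in Mc, against 808 and 1206 in ORS, and Sostdc1, which antagonizes Wnt and BMP proteins, read 2.6 and 1.6 in Mc, against 1037 and 1330 in ORS. Secreted antagonists were thus found on both sides, Wif1, Notum and Dkk3 higher in Mc and Sfrp1 and Sostdc1 higher in ORS.

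In the Notch pathway, of 24 genes on the array, Mc had 3 at higher and 8 at lower signals. The receptor Notch1 read 121 and 134 in Mc, against 947 and 1039 in ORS, and the ligands Jag1 and Jag2 were 5.05 and 5.93 times lower in Mc. Second probe-sets of Notch1 and Jag1, both dimmer, were not called. Nrarp, a target that restrains the pathway, was 4.27 times lower and the ligand Dll1 was lower by 1.64 on the log2 scale. The repressor Hey1, a Notch target, was higher in Mc, at 135 and 104, against 10.6 and 10.0 in ORS. Hey2 and Hes6 were higher by 0.76 and 0.69 on the log2 scale and lost their calls without ORS replicate 1 and without Mc replicate 2. A dim second Hes6 probe-set was not called.

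In the FGF and EGF families most genes were not called. Of 20 FGF pathway genes 7 were lower in Mc and none was higher, and of 12 EGF family genes 4 were lower and none was higher. Fgfr2 read 82.2 and 105 in Mc, against 759 and 934 in ORS, Fgfr3 read 79.1 and 67.9 in Mc, against 644 and 774 in ORS, and Fgfbp1, a carrier that releases FGFs from matrix, was 20.4 times lower in Mc. Dusp6, a phosphatase induced by ERK signaling, was lower but bright in both, at 719 and 500 in Mc, against 1587 and 1349 in ORS. Lrig1, a restraint on EGF receptors and a stem cell marker, read 36.9 and 16.4 in Mc, against 1243 and 1310 in ORS, although a dim second probe-set was not called. Erbb3, a neuregulin receptor named after its values were seen, was not called, at 1097 and 711 in Mc, against 501 and 547 in ORS (adjusted p = 0.0691).

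For the BMP and TGF-beta pathways, 5 of 37 genes were called higher and 13 were called lower in Mc. Fst, a secreted activin antagonist, read 58.2 and 40.7 in Mc, against 542 and 703 in ORS. Inhbb, an activin subunit, read 41.1 and 45.9 in Mc, against 463 and 751 in ORS. A second Inhbb probe-set was not called, at 103.8 and 123.4 in Mc, against 91.3 and 184.5 in ORS. The ligand Tgfb3 was 5.04 times lower. Smad6, an inhibitory Smad, was higher in Mc, at 551 and 970, against 158 and 154 in ORS. The other higher members were Id2 and, with differences under 2-fold, Tgfbr2, Tgfbr1 and Smad7. Each of these 3 lost its call without ORS replicate 2. A dimmer probe-set of Id2 and the other probe-sets of Tgfbr1 and Tgfbr2, all dim, were not called.

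Markers of other cell types were read beside these results. All 12 endothelial markers were at or below 111 on the 4 arrays and none was called, nor were the 3 erythroid markers or the 10 skeletal muscle markers. Of 13 macrophage and Langerhans cell markers Lyz2 was higher in Mc and H2-Ab1 lower, with log2 differences of 0.53 and -0.47. Both calls were lost with the fluidics station as a block. The summed signals were 459 and 590 in Mc, against 386 and 387 in ORS. Among the members not called, Ptprc, C1qa and Fcgr3 were at or below 13.5. Of 7 T cell markers Thy1 was lower in Mc, at 40.6 and 62.5, against 190 and 276 in ORS, a call lost without ORS replicate 2 or Mc replicate 1. Of 9 Merkel cell markers Krt18 was lower, a call lost without ORS replicate 2 or either Mc replicate, and Atoh1 and Krt20 were at or below 49.3.

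Mast cells also carry Kit. The Mc gate required high RFP as well. Of 9 mast cell markers 2 were higher in Mc (1 of 8 without Kit), Kit itself and the tryptase Tpsb2, at 263 and 365 in Mc, against 5.8 and 7.3 in ORS, and a dim second Tpsb2 probe-set was not called. The other 7 were not called and stood at or below 89.3, among them Cpa3 at 60.1 and 78.0 in Mc, against 53.8 and 89.3 in ORS, and Mcpt4 at 4.5 and 5.6 in Mc, against 3.70 and 3.2 in ORS. The part of mast cells in the Mc values was not tested.

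Genes of smooth muscle and fibroblasts were present in part. Of 9 pericyte and smooth muscle markers 3 were lower in Mc. Tagln read 19.3 and 7.4 in Mc, against 1293 and 1666 in ORS, Acta2 read 170 and 163 in Mc, against 1938 and 2614 in ORS, and Cspg4 read 52.1 and 81.1 in Mc, against 717 and 973 in ORS, while Myh11, Cnn1, Rgs5 and Pdgfrb were at or below 40.8. Of 16 fibroblast matrix markers 2 were higher in Mc and 4 were lower, with summed signals of 5844 and 3582 in Mc, against 6713 and 7415 in ORS. Col3a1 read 1280 and 921 in Mc, against 371 and 651 in ORS, and Postn read 128 and 84.0 in Mc, against 1093 and 1624 in ORS, whereas Pdgfra was at or below 14. Col3a1 and Lum, the members higher in Mc, lost their calls without ORS replicate 1 or Mc replicate 1. Of 14 dermal papilla markers Wif1 was higher and Bmp6 lower in Mc, the call of Bmp6 being lost without ORS replicate 2 or either Mc replicate, the sums were 941 and 627 in Mc, against 356 and 396 in ORS, and Crabp1 was at or below 14.1.

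Hair shaft and inner root sheath genes set the ORS replicates apart. Their 18 members summed to 2534 and 2689 in Mc, against 4672 and 9709 in ORS, and 2 of them, Krt25 and Krt27, were called lower in Mc but were not called without any one of the 4 arrays. Krt35, a hair cortex keratin, read 129 and 132 in Mc, against 160 and 959 in ORS, and was not called. Of 9 adipocyte and sebocyte markers 3 were lower in Mc, and the sums were 1227 and 1217 in Mc, against 2043 and 4473 in ORS, again with the higher value in ORS replicate 2. The part of these cells in the ORS values was not tested, and nor was that of smooth muscle cells or fibroblasts. The ORS gate required high GFP, driven by the K14 promoter.

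Genes of the immediate early response, which enzymatic dissociation can induce, were lower in Mc. Of 20, 15 were lower and none was higher, with a median log2 difference of -1.61, and they summed to 11289 and 10823 in Mc, against 38903 and 36648 in ORS. Egr1 read 528 and 523 in Mc, against 5404 and 5762 in ORS, and Atf3 read 81.3 and 108 in Mc, against 1555 and 1576 in ORS. The 2 populations were labeled and sorted in separate schemes, so the handling of the cells and their type cannot be told apart for these genes.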

How the data were processed

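Total RNA of sorted cells was amplified, labeled and hybridized to MOE430A arrays. The deposited values are MAS 5.0 signal intensity on a linear scale, 1 value for each probe-set and array. The methods give a common scaling target, but the trimmed mean of the deposited values ran between 162.0 and 196.4, so other scalings were tried. Of 22690 probe-sets, 64 controls were left out, and 20380 of the rest had 1 gene in the annotation, 691 several and 1555 none.

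Values were tested as log2(signal + 50) with limma 3.58.1 in R 4.3.3 (lmFit and eBayes), with 1 mean per population for all 5 populations and Benjamini-Hochberg adjustment over 22626 probe-sets. The residual degrees of freedom were 5 and the prior 2.56. Confidence intervals are 95% intervals of that fit. In simulated data the fit called 36% of 2-fold and 76% of 3-fold changes, and 6 of 22426 unchanged probe-sets. The number of arrays limits the precision.

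A gene was read by its brightest probe-set. Named were the markers and gate genes, the 12 leading genes in each direction, the 5 or fewer members per list that differed most, members against the trend of their list, genes the study's text names, bright members with under 1.5-fold difference, and disagreeing probe-sets. Other genes were named after their values were seen. Of 184 other probe-sets of all these genes, 138 had the same call as the brightest. In 44 cases only 1 of the pair was called, and not each of these is given above. The members and lists were chosen with earlier results of these data known. Promoters are RefSeq's, GRCm38.p6. The alternatives covered the pseudocount, filters on dim probe-sets, scaling, the arrays fitted, an intensity trend, blocks and leaving out each array.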

Additional observations from a re-analysis of the deposited data

How the results depend on the processing

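None of the alternatives called a probe-set in the direction opposite to that reported. Leaving out each array in turn gave between 1166 and 2031 probe-sets higher in Mc and between 1715 and 3221 lower, and the counts fell by more than 1.5 times without ORS replicate 1 and Mc replicate 2 in both directions and without Mc replicate 1 for the lower ones. A population left with 1 array was assumed to vary like the others. Of the called probe-sets 40.4% were higher in Mc, against 50.5% after quantile normalization, 49.5% with a common median and 52.0% with a common trimmed mean. A signal of at least 200 in both arrays of a population left 1276 higher and 2028 lower among 8054 tested. Whether the replicate number pairs the samples was not settled. No label ties same-numbered arrays beyond the chip lot, deviations of same-numbered Mc and ORS arrays correlated at 0.178, and over all pairs of populations the correlation lay between -0.047 and 0.271. With the replicate block 2005 were higher and 3001 lower, while blocking on chip lot gave 1851 and 2736. At least 2-fold differences numbered 981 higher and 1497 lower within one lot and 924 and 1500 within the other, with no test. With the fluidics station as a block, chosen after seeing the data, 1316 were higher and 2286 lower. Of 160 called genes named by the rule, 134 were called in every test. Among lists, the fewest calls under any alternative were 8 of 14 for melanosome transport, 7 of 11 for basal keratins, 10 of 16 for differentiation and 2 of 5 for the higher adhesion genes. Erbb3 passed the threshold under all 3 scalings. The cause of these shifts was not tested. Detection calls were not used here, so dim signals have no stated background. In the simulation, where few and only bright probe-sets changed, 2-fold changes were often missed. The rate of missed changes in the real arrays was not measured.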
